A study of Mus musculus with 8 samples.

Results

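Endothelial and vascular receptor genes were examined in RNA from sorted growth plate cells of mice treated with DMSO or SAG. The set comprised 10 genes taken by symbol from the 16536 genes of the count table: the endothelial adhesion and surface genes Cdh5, Pecam1, Eng, and Egfl7, the VEGF receptors Kdr, Flt1, and Flt4, and Tie1, Tek, and Angpt4 of the angiopoietin pathway. All 10 were present in the table and all 10 passed the filter on low counts. Angpt4, with 0 counts in every DMSO-treated mouse, did so through the SAG-treated mice alone. The libraries came from 4 Pthrp-mCherry mice given the vehicle DMSO and 4 given SAG, which activates the Hh pathway by binding Smoothened. Injections ran from P30 to P36 (a schedule a day later appears in the methods), and growth plate cells were collected at P38. Both groups carried the same reporter allele, in which mCherry marks cells that express PTHrP, and no wild-type or untreated mice were included. Cells of the growth plate region were sorted as mCherry+CD73+, a gate intended for resting zone chondrocytes and not for endothelium, so that every value below is a level within this sort and not within a vessel. Animals of both sexes were used in the study, and the sex of each mouse is not in the labels. The Y-linked gene Ddx3y had 28 counts in DMSO replicate 2, and 50 and 98 in SAG replicates 1 and 3. Every other library had 1770 or more, so the groups were not balanced for it.

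Endothelial cells line blood and lymphatic vessels and are held together by VE-cadherin (Cdh5) and PECAM1. VEGF ligands act on them through KDR, while FLT1 binds VEGF-A without strong signaling and can sequester it, and FLT4 serves mainly lymphatic vessels. Angiopoietins bind TEK (also called TIE2), and TIE1 is a partner of that receptor without an established angiopoietin ligand of its own. The resting and proliferative cartilage of the growth plate is avascular, and vessels enter at its borders with bone and marrow.

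The promoters of the 2 members whose groups did not overlap are printed here, from 250 bases before to 50 bases after the transcription start (RefSeq, GRCm38.p6, written 5′ to 3′ on the strand of the gene). Capitals mark AGGAAG or its reverse complement CTTCCT, a core sequence that ETS factors can bind and that was searched on both strands. Angpt4 lies on the + strand with its promoter window at chr2:151910957-151911256, and Flt1 on the - strand at chr5:147725962-147726261.
Angpt4: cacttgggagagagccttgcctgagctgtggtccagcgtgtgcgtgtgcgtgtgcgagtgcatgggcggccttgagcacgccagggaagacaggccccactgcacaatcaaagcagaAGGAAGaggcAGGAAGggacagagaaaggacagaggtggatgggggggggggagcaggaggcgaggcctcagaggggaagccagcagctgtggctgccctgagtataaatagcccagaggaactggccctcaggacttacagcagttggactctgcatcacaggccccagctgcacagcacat
Flt1: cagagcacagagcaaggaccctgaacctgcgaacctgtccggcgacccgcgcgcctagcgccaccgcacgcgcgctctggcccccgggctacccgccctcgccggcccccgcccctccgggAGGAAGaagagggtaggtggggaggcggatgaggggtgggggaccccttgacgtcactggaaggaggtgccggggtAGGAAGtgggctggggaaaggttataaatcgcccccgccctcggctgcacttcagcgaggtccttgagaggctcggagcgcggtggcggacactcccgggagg
Each window held 2 matches, which begin 133 and 123 bases before the start in Angpt4 and 129 and 53 bases before it in Flt1. Of the 10 promoter windows found for 8 of the members, 6 (60.0%) held at least 1 match, against 35.4% of all 32851 windows of that length in the annotation. Among 25 windows of the further endothelial genes listed below, 12 (48.0%) held a match. Eng and Tie1, whose groups overlapped, also held 2 matches each. Kdr, Flt4, and Tek held 0 matches, as did 1 of the 3 windows of Egfl7. The other windows of Egfl7, whose groups overlapped too, held 3 and 2 matches. These counts describe letters in a window and not binding.

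Between 24971992 reads (DMSO replicate 4) and 46593090 reads (SAG replicate 4) were counted on genes per library, and the members' own counts ran from 0 to 2440. Among the 80 member values, 47 were at least 100 counts, 6 were under 10, and 5 were 0. Levels are given as CPM (counts scaled to library size after TMM), and 3 counts corresponded to between 0.0670 and 0.114 CPM, a floor that covers counting error only. DMSO replicate 4 stood apart, with Spearman's rho across genes of 0.846 to 0.875 against the other DMSO libraries, and 0.867 to 0.888 against the SAG libraries, where pairs of libraries without it were at 0.895 or above. Across the 15421 genes tested by edgeR's quasi-likelihood test, 404 (2.62%) were higher and 41 (0.266%) were lower in SAG-treated mice at an adjusted p under 0.05, and the median log2 fold change was -0.08. Every SAG-treated mouse was above every DMSO-treated mouse in 7.9% of genes and below in 3.84%. The 13 chondrocyte markers had a summed level of 50077 to 118834 CPM in DMSO-treated and 20610 to 57353 CPM in SAG-treated mice. Neutrophil markers summed to more than these in SAG replicate 2 (44499 against 20610 CPM). The 10 members together reached 56.2 to 148 CPM in DMSO-treated and 57.5 to 80.3 CPM in SAG-treated mice. In RNA from pooled cells a smaller number of cells of a type and less RNA per cell cannot be told apart.

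Of the 10 members, 1 was higher in SAG-treated mice (Angpt4), against a background of 2.62% of all genes, and 0 were lower, against 0.266% (edgeR's quasi-likelihood test). At an unadjusted p under 0.05 the same test gave 1 higher and 0 lower, where 9.58% of all genes were higher and 6.5% lower. At that threshold DESeq2 gave 1 and 0 (9.58% and 8.75% of all genes) and limma voom 1 and 1 (13% and 10.7%). At an adjusted p under 0.05 DESeq2 called 0 higher and 0 lower of the 8 members it adjusted (6.6% and 3.35% of all genes), and limma voom 1 and 0 of 10 (6.45% and 2.58%). The groups did not overlap in 2 members, Angpt4 and Flt1, both higher in SAG-treated mice, where 7.9% of all genes did so. The fold changes had both signs, with 4 positive and 6 negative, and their median on the log2 scale was -0.41, also with Angpt4 placed at its lower bound.

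**Figure D1:**
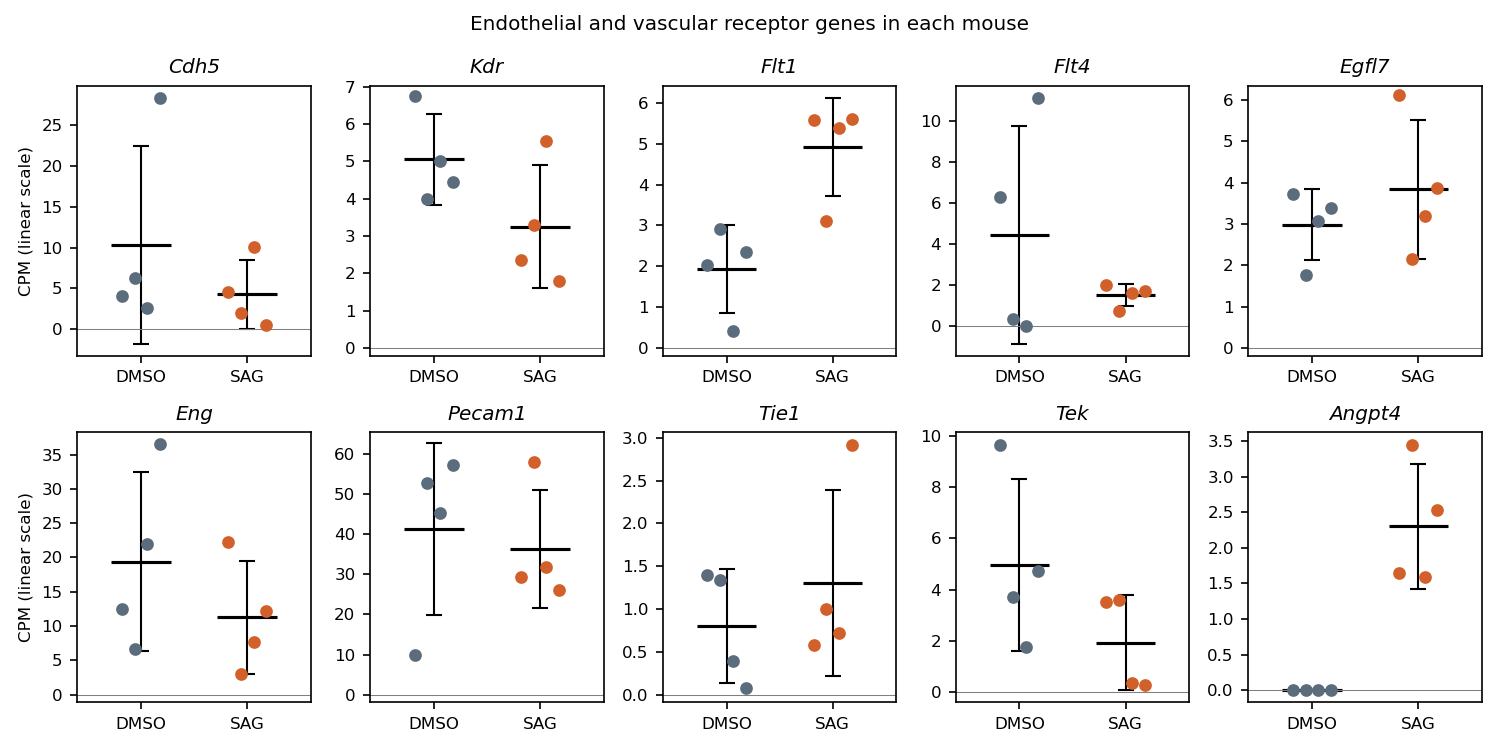
Level of each of the 10 genes in CPM (y axis, linear, with a separate scale for each gene) in the 4 DMSO-treated and 4 SAG-treated mice (x axis); points are mice, horizontal lines are group means and error bars are SD, some of which reach below 0. Angpt4 is at 0 in every DMSO-treated mouse, Flt1 does not overlap between the groups, and the highest DMSO point for Cdh5 is replicate 4 at 28.2 CPM.

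Angpt4 encodes an angiopoietin, a secreted ligand of TEK, and lies at chr2:151911210-151945337 (GRCm38, + strand). It had 0 counts in each of the 4 DMSO-treated mice and 57, 145, 64, and 111 counts in SAG replicates 1 to 4. In CPM these were 1.64, 3.45, 1.59, and 2.53, with a mean of 2.30 ± 0.876 (SD, n = 4), so the groups were fully separated. Set against the highest floor of a DMSO library (3 counts, 0.114 CPM), the mean of the SAG-treated mice was at least 20.2-fold higher and the lowest SAG-treated mouse at least 14-fold higher. Angpt4 passed edgeR's quasi-likelihood test at an adjusted p of 0.0304, and limma voom gave 0.00912. The gene entered these tests only through its counts in the SAG-treated mice. The call, also in the count of members called, therefore adds no support beyond the counts themselves. DESeq2 gave an unadjusted p of 1.17e-08 and no adjusted p, as its filter on mean counts set the gene aside. Leaving out 1 library at a time, the adjusted p was 0.0121 without DMSO replicate 4 and between 0.0577 and 0.127 without any other library. It was 0.0508 with log2 CPM of the Y-linked gene Ddx3y as a covariate. The adjusted p thus lay near the threshold under most settings, while the counts themselves did not overlap, at 0 against 57 or more.

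Such a pattern was rare but not limited to Angpt4. Of the 15421 tested genes, 12 had 0 counts in all DMSO-treated mice and a count in all SAG-treated mice, and 3 of these had at least 50 counts in every SAG-treated mouse. The other two were Stfa3, of the stefin A family of protease inhibitors, and Vcp-rs, and they are named here after their values were seen. In the opposite direction 1 gene was at 0 in all SAG-treated mice only. Genes at 0 throughout 1 group were tested only because the other group passed the filter on low counts.

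Neither Tek nor Tie1 passed the test. Tek (chr4:94739289-94874976, + strand), the receptor tyrosine kinase for angiopoietins, was at 9.65, 3.73, 1.78, and 4.75 CPM in DMSO replicates 1 to 4 and at 3.51, 3.59, 0.374, and 0.297 CPM in SAG replicates 1 to 4. The groups overlapped: SAG replicates 1 and 2 lay above DMSO replicate 3, and SAG replicates 3 and 4 lay below all DMSO-treated mice. The log2 fold change was -1.36 (SE 0.99, adjusted p = 0.571, edgeR), with a 95% interval of -3.52 to 0.81. Tie1 (chr4:118471191-118490061, - strand), the partner receptor of TEK, had the lowest mean level of the set, at 1.40, 1.34, 0.393, and 0.0759 CPM in the DMSO-treated and 0.575, 0.998, 0.722, and 2.92 CPM in the SAG-treated mice. The value of DMSO replicate 4 rests on 2 counts, with an exact Poisson interval of 0.0092 to 0.274 CPM. SAG replicate 4 was the highest and the other SAG-treated mice lay within the range of the DMSO-treated mice, with a log2 fold change of 0.70 (SE 1.23, adjusted p = 0.859, edgeR).

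The fold changes of the VEGF receptors differed in sign, and 0 of the 3 passed the test. Flt1 (chr5:147561604-147726011, - strand), which encodes VEGFR1, was at 2.03, 2.92, 0.423, and 2.35 CPM in DMSO replicates 1 to 4 and at 5.58, 3.11, 5.38, and 5.61 CPM in SAG replicates 1 to 4. Every SAG-treated mouse was above every DMSO-treated mouse, although SAG replicate 2 exceeded DMSO replicate 2 by little and both had 131 counts. The group means were 1.93 ± 1.07 and 4.92 ± 1.21 CPM (SD, n = 4 each), and the log2 fold change was 1.35 (SE 0.77, 95% interval -0.35 to 3.04, adjusted p = 0.449, edgeR). Across 17 alternative settings it stayed positive, and 0 of them gave an adjusted p under 0.05, the lowest being 0.214.

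Kdr (chr5:75932827-75978458, - strand), which encodes VEGFR2, the main signaling receptor for VEGF-A, was the steadiest of the receptors. It was at 6.76, 4.00, 5.01, and 4.44 CPM in the DMSO-treated and at 2.36, 3.30, 5.56, and 1.80 CPM in the SAG-treated mice. SAG replicates 1, 2, and 4 lay below all DMSO-treated mice and SAG replicate 3 lay within their range, giving a log2 fold change of -0.63 (SE 0.64, 95% interval -2.04 to 0.77, adjusted p = 0.715, edgeR).

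Flt4 (chr11:49609263-49652739, + strand), which encodes the VEGF-C receptor VEGFR3, split the DMSO-treated mice. Replicates 1 and 4 were at 6.30 and 11.1 CPM, replicate 2 was at 0.335 CPM, and replicate 3 had 0 counts, which allows a level of up to 0.0906 CPM. The SAG-treated mice were at 1.98, 0.737, 1.62, and 1.69 CPM, all between these extremes. The log2 fold change was -1.55 with an SE of 1.40 (adjusted p = 0.669, edgeR), and the sign was positive under limma voom (1.87), so no direction can be given for Flt4.

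Cdh5 (chr8:104101625-104144511, + strand), the most specific of the endothelial markers in the set, varied by more than any other member that had a count in every mouse, from 0.479 CPM (21 counts, SAG replicate 4) to 28.2 CPM (744 counts, DMSO replicate 4), a 59.0-fold range. DMSO replicates 1 to 4 were at 4.03, 6.34, 2.63, and 28.2 CPM and SAG replicates 1 to 4 at 4.63, 1.97, 10.1, and 0.479 CPM. The groups overlapped, with means of 10.3 ± 12.1 and 4.30 ± 4.24 CPM (SD, n = 4 each), and the higher DMSO mean rested on DMSO replicate 4. The log2 fold change was -1.26 (SE 0.94, adjusted p = 0.585, edgeR), and without DMSO replicate 4 it was 0.020.

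Pecam1 (chr11:106654217-106750628, - strand) encodes the junction protein CD31, which platelets, neutrophils, and monocytes also carry. It was at 9.91, 52.8, 45.3, and 57.2 CPM in DMSO replicates 1 to 4 and at 29.3, 58.0, 32.0, and 26.1 CPM in SAG replicates 1 to 4, with DMSO replicate 1 below all other mice. Its log2 fold change of -0.18 (SE 0.46, 95% interval -1.20 to 0.83, adjusted p = 0.902, edgeR) was the smallest in size among the members, and without DMSO replicate 4 it was 0.044.

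Eng (chr2:32646595-32682669, + strand) encodes endoglin, a coreceptor for ligands of the TGF-β family that is found on endothelium and on some stromal and blood cells. It was at 12.4, 6.59, 22.0, and 36.6 CPM in the DMSO-treated and at 22.3, 3.02, 7.67, and 12.2 CPM in the SAG-treated mice, with overlapping groups and a log2 fold change of -0.78 (SE 0.63, adjusted p = 0.624, edgeR). Egfl7 (chr2:26580014-26593120, + strand), which encodes a protein that endothelial cells secrete into their matrix, ranged over 3.47-fold only, from 1.76 to 3.73 CPM in the DMSO-treated and from 2.16 to 6.12 CPM in the SAG-treated mice. Its log2 fold change was 0.36 (SE 0.70, adjusted p = 0.872, edgeR). Exons of Egfl7 share 64 bases with Agpat2 and exons of Eng share 61 bases with Fpgs, both on the opposite strand. How strand was used in counting is not given in the sources used here. Exons of Egfl7 also share 264 bases with the protein-coding gene Gm20532 and 73 bases with Mir126a, both on the same strand. Neither of these is in the count table.

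**Figure D2:**
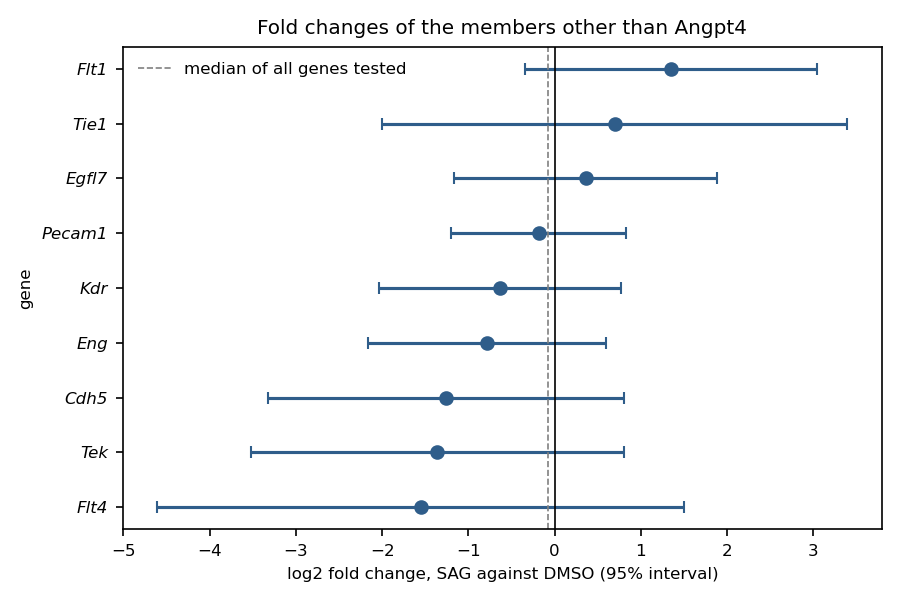
Log2 fold change of SAG against DMSO (x axis) for 9 of the genes (y axis), as points with 95% intervals from edgeR; the solid line is 0 and the dashed line is the median of all genes tested (-0.08). All 9 intervals include 0, from Flt4 at -1.55 to Flt1 at 1.35, and Angpt4 is left out because its DMSO-treated mice were at 0.

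To compare levels between genes, CPM was divided by the exonic length of each gene in kilobases. On this scale Pecam1 had the highest mean level over the 8 mice (6.23 CPM per kb), followed by Eng (3.79), Cdh5 (1.74), Egfl7 (0.953), Tek (0.734), Angpt4 (0.493), Kdr (0.460), Flt4 (0.361), Flt1 (0.254), and Tie1 (0.214). Pecam1 ranked first in 6 mice and Eng in the other two. The ranges of all neighbors in this order overlapped, and only Eng over Cdh5, in 7 mice, and Pecam1 over Eng, in 6 mice, kept their order in more than 5 of 8 mice. Angpt4 was last or tied for last in the DMSO-treated mice and between second and sixth in the SAG-treated mice, above Kdr, Flt1, Flt4, and Tie1 in all 4. Kdr kept between the fifth and the eighth place in every mouse, whereas Cdh5 ran from the second to the ninth and Tek from the second to the tenth. Pecam1 alone made up between 17.6% and 72.2% of the members' summed CPM.

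Levels of the members were weakly related to each other across mice. After subtraction of each group's mean from log2 CPM, the 36 pairs among the 9 members other than Angpt4 had a median Pearson's r of 0.0081 over the 8 mice, and 18 of them were below 0. These values are a description, as the points share library and depth. Egfl7 with Eng (0.87) and Flt1 with Flt4 (0.72) had r above 0.7, and Cdh5 with Tie1 was at -0.73. Cdh5 and Pecam1, the junction genes, had r of 0.27, and Tek with its partner Tie1 had r of -0.14.

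**Figure D3:**
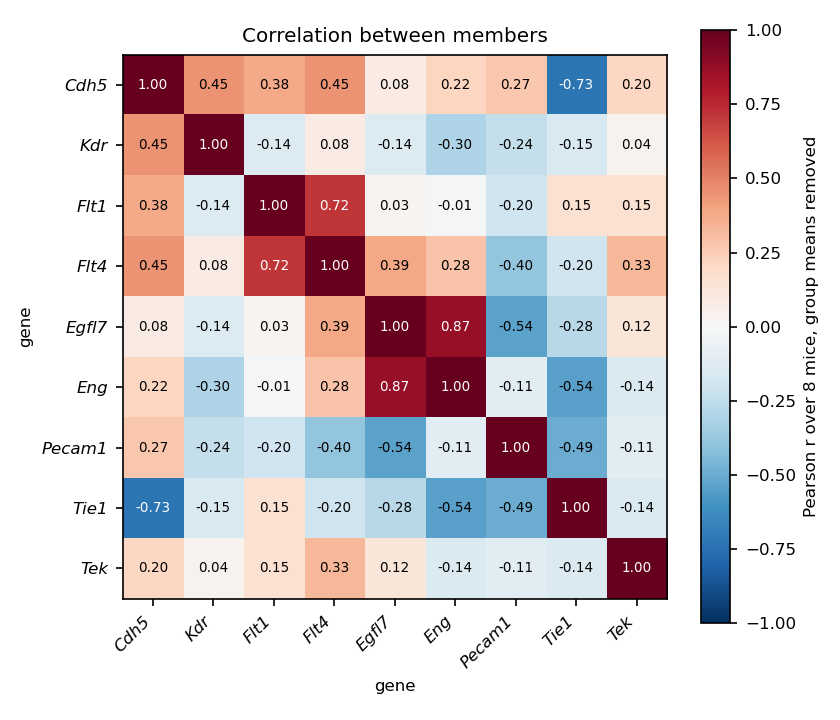
Pearson's r between log2 CPM of each pair of 9 genes (both axes) over the 8 mice after removal of the group means, from -1 in blue to 1 in red. Egfl7 with Eng (0.87) is the highest pair and Cdh5 with Tie1 (-0.73) the lowest, and 18 of the 36 pairs are below 0.

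The genes whose pattern was most like that of Cdh5 by the same measure, among 13885 genes with a mean count of at least 50, were Adprhl2 (r = 0.991), Vmn1r-ps144 (0.980), Wdr61 (0.975), Aldh8a1 (0.960), Psph (0.951), Trpm1 (0.947), Nr6a1 (0.947), Rnls (0.945), Olfr742 (0.944), and Lrpprc (0.941). None of these 10 was on the lists of endothelial genes used here, and 26 genes in all had r above 0.9. High values of r can arise by chance when 13885 genes are compared over 8 mice. How many would do so was not tested, so the list does not establish shared expression with Cdh5.

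Each member was next set against a summed reference of 7 further endothelial genes (Plvap, Robo4, Ecscr, Clec14a, Mmrn2, Sox18, and Stab2), which gives its level relative to other vessel genes of the same library. The genes behind this reference differed between mice. Stab2 gave 544 of its 589 counts in DMSO replicate 4, and Plvap gave 435 of 571 in SAG replicate 4. The reference itself amounted to 8.33 to 22.4 CPM in DMSO-treated and 7.01 to 14.6 CPM in SAG-treated mice, with overlapping groups. The log2 ratio of Flt1 to it was -2.98 in DMSO-treated and -1.14 in SAG-treated mice, a difference of 1.84 with all SAG-treated mice above all DMSO-treated mice. Its exact 2-sided permutation p was 0.0286, the smallest that 4 mice against 4 can give. The ratio of Angpt4 separated by its 0 counts in DMSO-treated mice whatever the reference, so it adds nothing to them. The other 8 ratios had exact permutation p of 0.343 or more. Of the 10 ratios at least 6 would have to separate fully for any to have a p under 0.05 after Benjamini-Hochberg adjustment, so that 0 such ratios was set by the design. With 23 other endothelial genes as reference, the difference for Flt1 was 0.96 (exact permutation p = 0.314). On that reference the ratio of Kdr was lower in every SAG-treated mouse, by -1.38 on the log2 scale (exact permutation p = 0.0286). The ratio of Tek differed by -2.56 (exact permutation p = 0.0857). However, the reference itself was higher in every SAG-treated mouse. Without Acvrl1 and Fli1, described below, its summed level overlapped between the groups (176 to 257 against 175 to 232 CPM). Ratios to the reference without these genes were not computed. With Cdh5 as reference the difference was 2.95 for Flt1 (exact permutation p = 0.0286) and 0.61 for Kdr (exact permutation p = 0.686).

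The ligands and coreceptors of the same pathways gave no called gene. Of 11 symbols on the list, of which Vegfd and Figf name the same gene, 8 were tested, 0 were called in either direction by edgeR, DESeq2, or limma voom, and 0 had an unadjusted p under 0.05 in any of these tests. Of the 8, DESeq2 gave an adjusted p to 7. Their median log2 fold change in edgeR was 0.01, against -0.08 for all genes. Vegfa, the ligand of KDR and FLT1 that hypertrophic cartilage secretes, was at 205 CPM in DMSO-treated and 178 CPM in SAG-treated mice on average, with a log2 fold change of -0.20 (SE 0.20, adjusted p = 0.711, edgeR). The neuropilins, coreceptors for VEGF, had log2 fold changes of 0.19 (Nrp2) and 0.49 (Nrp1). Angpt1, the main activating ligand of TEK, had 284, 831, 666, and 138 counts in DMSO replicates 1 to 4 and 205, 514, 298, and 327 counts in SAG replicates 1 to 4, a log2 fold change of -0.61 (SE 0.52, adjusted p = 0.644, edgeR). Angpt2, an angiopoietin that can oppose Angpt1 at TEK and is named outside the rule after its values were seen, had a log2 fold change of 0.67 (SE 0.60, adjusted p = 0.664, edgeR). Whether the fold change of Angpt4 differed from those of Angpt1 and Angpt2 was not tested, and Pgf was not analysed here.

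Further endothelial genes were examined as lists, to see how vessel genes behaved beyond the members. Of the 10 core markers, 6 were tested, 0 were called by edgeR, DESeq2, or limma voom, 0 had an unadjusted p under 0.05, and the median log2 fold change was -0.15. DESeq2 gave an adjusted p to only 2 of these markers, so its 0 calls do not cover the rest. Plvap, which forms the diaphragms of fenestrated endothelium, was the most abundant of them per length (1.99 CPM per kb), and its log2 fold change was 0.74 (SE 0.75, adjusted p = 0.719, edgeR). Robo4, Ecscr, Clec14a, Mmrn2, and Sox18 each had 0 counts in at least 1 library, and Emcn, Cldn5, and Sox17 were not analysed here. Of 23 tested genes on the second list, 2 were called higher by edgeR (against 2.62% of all genes), 0 were lower, and the median was -0.26. DESeq2 called 3 higher and 0 lower of the 15 it adjusted (6.6% and 3.35% of all genes). With limma voom 3 of 23 were higher and 0 lower (6.45% and 2.58%). At an unadjusted p under 0.05 in edgeR, 3 were higher and 1 was lower, where 9.58% and 6.5% of all genes were.

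Acvrl1 and Fli1 were the genes called by edgeR. Acvrl1 encodes ALK1, the receptor kinase that works with endoglin, and had 1091, 268, 1030, and 1122 counts in DMSO replicates 1 to 4 and 2610, 6839, 4291, and 5521 counts in SAG replicates 1 to 4. The groups did not overlap, and the log2 fold change was 2.16 (SE 0.48, adjusted p = 0.0346, edgeR). Fli1, an ETS transcription factor of endothelium, megakaryocytes, and other blood cells, went from a mean of 69.0 to 158 CPM without overlap, a log2 fold change of 1.19 (SE 0.26, adjusted p = 0.0349, edgeR). Erg, the related factor, did not pass at 0.77 (SE 0.42, adjusted p = 0.420, edgeR), and neither did Lyve1, a marker of lymphatic vessels and macrophages, at 0.74 (SE 0.55, adjusted p = 0.580, edgeR). These 4 were also the most abundant genes of the list per length, and at 7.19 CPM per kb or more each exceeded every member. Rasip1, which regulates vessel lumen formation and is named after its values were seen, was the third gene without overlap (log2 fold change 1.82, SE 0.57, adjusted p = 0.122, edgeR). DESeq2 and limma voom called it, at adjusted p of 0.0195 and 0.0409. Acvrl1 was called in 11, Fli1 in 8, and Rasip1 in 3 of 17 alternative settings. The summed level of this list was 235 to 343 CPM in the DMSO-treated and 409 to 546 CPM in the SAG-treated mice. Without Acvrl1 and Fli1, a sum formed after the values were seen, the other 21 genes were at 176 to 257 and 175 to 232 CPM and overlapped between the groups, as did the sum of the members.

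Levels of other cell types' markers in the same libraries were as follows, with DMSO-treated mice first. Neutrophil markers had a summed level of 5147 to 14888 CPM in DMSO-treated and 28128 to 44499 CPM in SAG-treated mice, 9 of 13 were called higher, and S100a9 and Ngp had the highest counts. B-lineage markers had summed levels of 84.7 to 417 and 27.5 to 48.8 CPM, 3 of 9 tested were called lower, and Ebf1 and Pax5 had the highest counts. Megakaryocyte and platelet markers, led by Itgb3 and Pf4, ranged from 23.0 to 123 CPM and from 86.5 to 146 CPM with 0 called by edgeR, DESeq2, or limma voom. Mural cell markers, led by Cspg4 and Pdgfrb, ranged from 360 to 735 CPM and from 178 to 424 CPM with 0 called in the same tests. Of the 8 megakaryocyte and 9 mural markers tested by edgeR, DESeq2 gave an adjusted p to only 4 and 5. Cspg4 alone gave most of the mural sum, at 660 of 735 CPM in DMSO replicate 1 and 360 of 424 CPM in SAG replicate 4. Of 12 monocyte and macrophage markers 1 was called higher, their sums were 448 to 846 and 782 to 1082 CPM, and Cd14 and Ly6c2 had the highest counts. Erythroid markers, with Hbb-bs and Hbb-bt the highest, summed to 680 to 5233 and 386 to 3674 CPM with 0 called in those tests. At an unadjusted p under 0.05 in edgeR, 0 of the megakaryocyte, 1 of the mural, and 0 of the erythroid markers differed, the mural one being lower. Of all genes, 9.58% were higher and 6.5% lower. DESeq2 gave 1 megakaryocyte marker higher, 2 mural markers lower, and 0 erythroid markers (9.58% and 8.75% of all genes). With limma voom 1 megakaryocyte marker was higher, 3 mural markers were lower, and 0 erythroid markers differed (13% and 10.7%). Chondrocyte markers, led by Col2a1 and Cnmd, had negative log2 fold changes in all 13 genes with a median of -1.02. Of these, 0 were called by edgeR, where 12 were lower at an unadjusted p under 0.05, and 6 and 9 were called lower by DESeq2 and limma voom. Osteoblast and stroma markers, led by Col1a1 and Col1a2, summed to 2358 to 10648 and 2474 to 4550 CPM, with 0 called by edgeR, 2 lower at an unadjusted p under 0.05, and 2 and 1 called lower by DESeq2 and limma voom. The part of any of these cell types in the levels of Angpt4, Flt1, Acvrl1, and Fli1 was not tested.

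**Figure D4:**
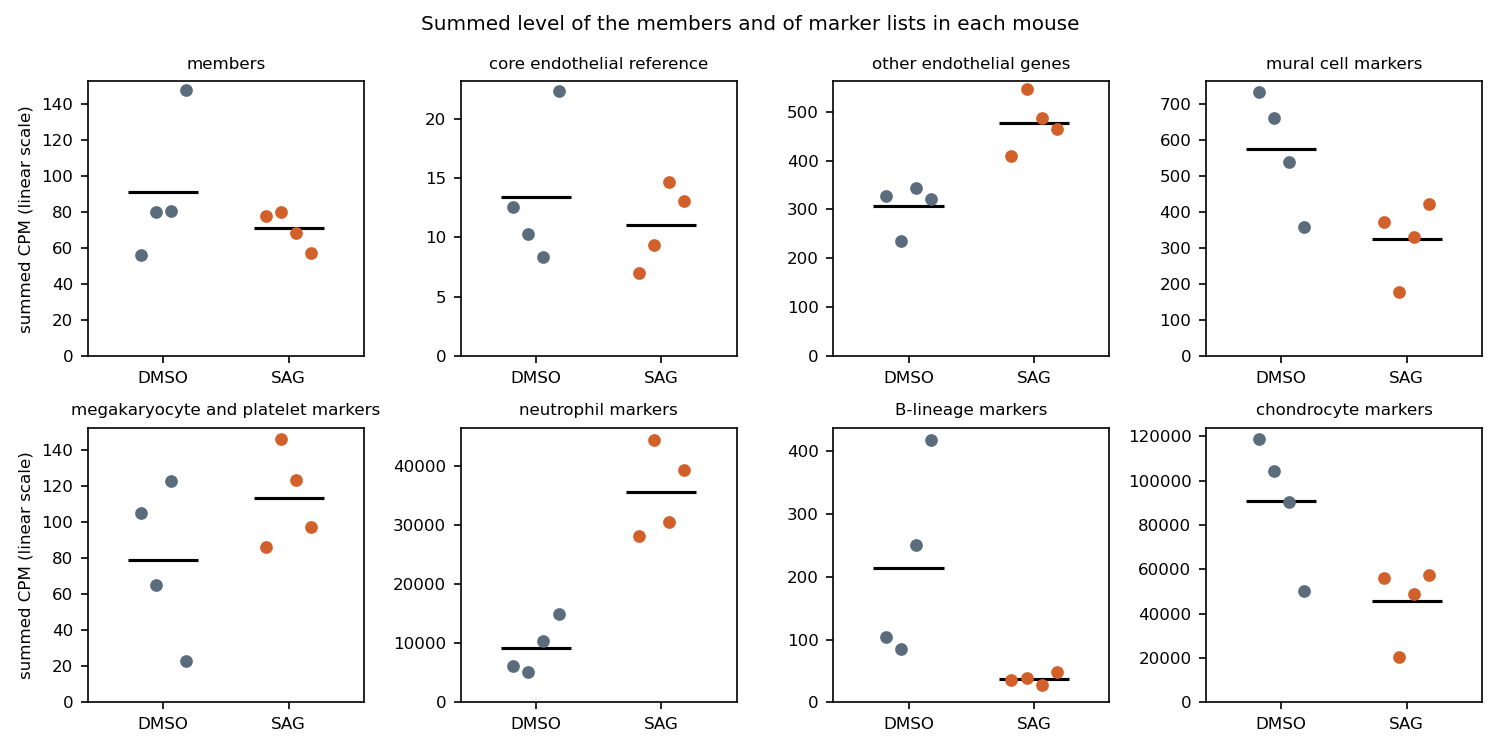
Summed CPM (y axes, linear, from 0, with a separate scale for each list) of the 10 members and of 7 marker lists in the 4 DMSO-treated and 4 SAG-treated mice (x axis); points are mice and horizontal lines are group means. The members and the core endothelial genes overlap between the groups. The neutrophil markers are higher and the B-lineage markers lower in every SAG-treated mouse, and so is the second endothelial list higher, though not without Acvrl1 and Fli1 (176 to 257 against 175 to 232 CPM).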

How the data were processed

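RNA of FACS-sorted mCherry+CD73+ cells from both femoral growth plates of each mouse was extracted with a kit for small inputs and sequenced from stranded total RNA libraries, with 1 library per mouse. The authors deposited raw counts per gene for 8 libraries. Per the labels the processing notes name kallisto, DESeq2, and GRCm38. Their versions and roles are not given in the sources used here. All values were whole numbers, and 16524 of 16536 symbols were found in GENCODE M21 (GRCm38), which gave coordinates and exonic lengths. Libraries are rows of the table, matched to treatment by their row names and the labels' descriptions and to replicate number by the titles, and 0 rows were left unmatched.

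The test was run in edgeR 4.0.16 (R 4.3.3): filterByExpr, TMM, and the robust quasi-likelihood test of SAG against DMSO, with Benjamini-Hochberg adjustment over 15421 genes and a threshold of 0.05. For log2 CPM a prior count of 2 was used, and 0.5 was added to counts in ratios. Single ratios were compared by exact 2-sided permutation over the 70 relabellings. Each mouse is a replicate, and 95% intervals from counts cover counting error only. The edgeR fit was also run on simulated counts that varied less between libraries than these data, and no result here rests on that run. Alternatives were DESeq2 1.42.0, limma 3.58.1 voom with sample weights, other scalings and filters, a replicate block, Ddx3y as a covariate, and each library left out.

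The members and gene lists were chosen with earlier results of these data known. Named genes were the members, the called and the most abundant genes of the ligand and endothelial lists, the 10 genes most like Cdh5, and the 2 with the highest counts in each other list. Other exceptions are marked where they occur. Promoter sequences are from RefSeq (GRCm38.p6).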

Additional observations from a re-analysis of the deposited data

Results flagged for a closer look

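In groups of 4 mice, 2 values stood far from the other three of their group, as the gap to the nearest mouse divided by the range of the group exceeded Dixon's 95% critical value for 4 samples. Cdh5 in DMSO replicate 4, at 28.2 CPM against 6.34 CPM or less, had a ratio of 0.855. Flt1 in SAG replicate 2, at 3.11 CPM against 5.38 CPM or more, had a ratio of 0.908. With 19 groups examined, chance alone would give 0.95 such values.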

How the results depend on the processing

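Across all genes the number called higher was 812 with DESeq2 and 995 with limma voom, and the number called lower was 413 and 398; with at least 10 counts in every library 87 were lower. Leaving out 1 library at a time gave 80 (without DMSO replicate 2) to 1017 (without DMSO replicate 4) higher and 4 (without DMSO replicate 3) to 343 (without DMSO replicate 4) lower genes. Among the members, the number called higher was 0 with DESeq2 (where Angpt4 and Tie1 had no adjusted p), 0 with at least 10 counts in every library (where Angpt4 was removed), 0 with Ddx3y as a covariate, and 0 to 1 with 1 library left out, with 1 only without DMSO replicate 4. The number called lower was 0 in every fit run. Angpt4 was called in 6 of 15 alternatives, with adjusted p from 0.00912 to 0.153.

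The labels give no pairing of mice by replicate numbers 1 to 4, so the main fit used none. Deviations of same-numbered mice correlated at 0.12, 0.022, 0.019, and 0.010, and 2 of 4 matched best with their own number. These few values cannot settle whether mice were paired. With the replicate block, 18 genes were lower, 0 members were higher (adjusted p of Angpt4 0.153), and Flt4 was at 0.095. Log2 fold changes that reversed were Flt4 (1.87) and Pecam1 (0.074) with limma voom, and, with 1 library left out, Cdh5 (-2.12 to 0.020), Pecam1 (-0.51 to 0.044), and Tie1 (-0.068 to 1.10). Among log2 ratios to the core endothelial genes, Kdr (0.61) and Eng (0.50) reversed with Cdh5 as reference, Egfl7 (-0.33) and Pecam1 (-0.63) with the other endothelial genes, and Flt4 (-0.59 to 2.11) and Pecam1 (-0.35 to 0.58) with 1 library left out. The cause of these changes was not tested. Apart from Angpt4, the members' 95% intervals of the log2 fold change ran from -4.61 to 3.40 at their extremes.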
